A study of Arabidopsis thaliana with 12 samples.

Results

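Roots of the Arabidopsis thaliana mutants slim1-1 and slim1-2 were compared after growth on low-sulfate agar, to see where the alleles gave the same root transcript levels and where they did not. The comparison rests on 4 of the 12 arrays of the series, 2 of slim1-1 and 2 of slim1-2, all taken from plants on the medium called S15. The arrays were chosen by their labelled line and medium, with no use of measured values. Every probe set that was not a control was eligible, and 13647 of 22746 passed a filter on dim signals and were tested.

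All lines descend from the Col-0 accession and carry GFP under the SULTR1;2 promoter. The parental reporter line is called P, and both mutants were isolated from it as plants whose GFP failed to respond to sulfur limitation. Each allele is represented by 1 line, and any other mutation that a line carries goes with its allele. Plants were 10 days old, and only roots were used. On S15 the agar received 15 µM MgSO4, and on the sufficient medium S1500 it received 1500 µM, while washed agar brought about 10 µM sulfate of its own. Each combination of line and medium had 2 arrays, labelled as biological replicates.

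SLIM1, also known as EIL3, is an EIN3-like transcription factor that controls much of the root response to sulfur shortage. In wild-type roots this response raises sulfate uptake and the release of sulfur from stored glucosinolates, and it lowers glucosinolate synthesis. Independent alleles of one gene are compared because a difference from the parent that both share is less likely to come from an unlinked mutation in either line. SLIM1 itself was not analysed here.

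Signals are given as quantile-normalized log2 values, in which 1 unit is a 2-fold step, and differences are slim1-1 minus slim1-2 unless another pair is named. A difference was called when its adjusted p in limma, taken over all tested probe sets, was under 0.05. The standard error (SE) in the fit or a 95% interval is printed for the genes described in full. The deposited array medians ran from 65.65 to 174.95, and the highest belonged to slim1-2-S15 replicate 2. Without normalization between arrays the median probe set lay 0.37 lower in slim1-1 than in slim1-2 on S15, so all values below are relative to the normalized level.

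On S15 the mutants lay about as close to each other as replicate arrays did. The replicate arrays of slim1-1 differed by more than 2-fold at 29 probe sets and those of slim1-2 at 21. The 4 pairings of a slim1-1 array with a slim1-2 array differed that much at 29 to 52 probe sets. On S1500, where other arrays were used, the same pairings gave 108 to 140 probe sets, against 30 and 62 between replicates. A slim1 array paired with a P array on S15 gave 98 to 131. By this count the pairings between the alleles on S15 met the replicate pairs, at 29 alone. Those on S1500 or with P did not. The contrast between media depends on this measure. By the median absolute log2 difference, the S1500 pairings of the alleles ran from 0.140 to 0.166. They thus overlapped their replicate pairs, at 0.128 and 0.150.

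**Figure D1:**
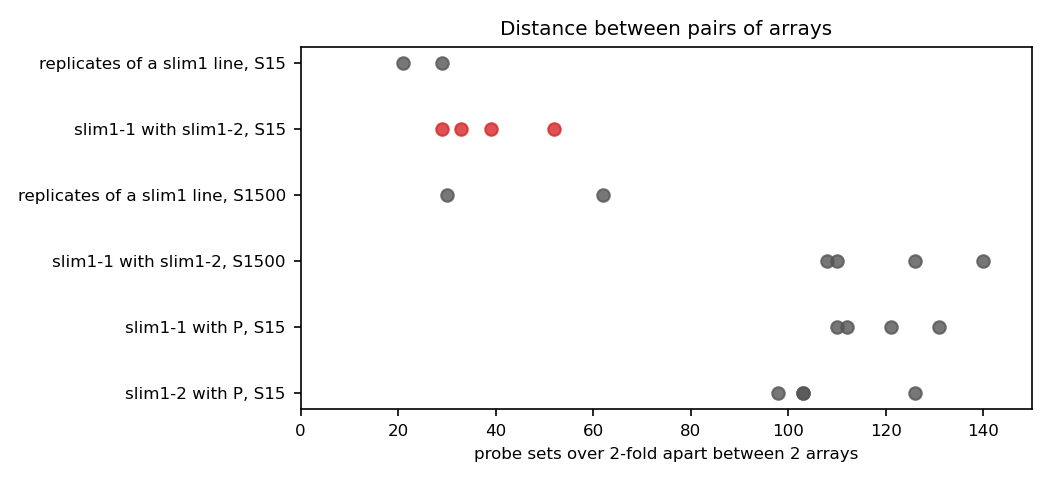
Number of tested probe sets more than 2-fold apart (x axis) for pairs of arrays, 1 point per pair, grouped by what the pair compares (y axis). The 4 slim1-1 with slim1-2 pairs on S15, in red, sit at 29 to 52, beside 21 and 29 for replicates, and pairs with P or between the alleles on S1500 sit at 98 to 140.

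Between the alleles on S15, 25 probe sets were called (0.183% of those tested), 8 higher (0.0586%) and 17 lower (0.125%) in slim1-1. Of the 25, 4 differed by at least 2-fold. An unadjusted p under 0.05 was reached by 822 probe sets. The 95% interval of the difference lay within 1 log2 unit of 0 for 13437 probe sets (98.5%) and within 0.5 for 9532 (69.8%). For most probe sets a 2-fold allele difference therefore lay outside the interval.

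Agreement was also read among probe sets that differed from P in the mean of the mutants, which does not require a call in each of them. The mean of the mutants differed from P on S15 at 296 probe sets (2.17%), 101 higher (0.74%) and 195 lower (1.43%). This contrast does not use the difference between the alleles, although both share the estimate of the spread. Of the 296, 282 were not called between the alleles and 14 were, which is 4.73%, against 0.183% of all tested. The interval of the allele difference lay within 1 log2 unit for 275 of them (92.9%, against 98.5% of all tested). The median size of the allele difference was 0.16 in these probe sets and 0.094 over all tested, beside a median difference from P of 0.60. Among the 101 that were higher than in P 1 was called between the alleles, and among the 195 that were lower 13 were (0.99% and 6.67%). Allele calls thus made up a larger share here than over all tested probe sets, and no test was made of that difference.

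Of the sulfur-related genes, BGLU28, a beta-glucosidase induced in sulfur-starved roots, had log2 signals of 7.63 and 7.49 in slim1-1, 7.85 and 7.99 in slim1-2, and 11.31 and 11.29 in P. Both mutants lay far below P, and the slim1-1 arrays lay just under the slim1-2 arrays without overlap. The difference from P was -3.74 ± 0.20 (SE) in slim1-1 and -3.38 ± 0.20 in slim1-2, and that between the alleles was -0.36 (95% interval -0.80 to 0.07, adjusted p = 0.91).

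ATPS4, an ATP sulfurylase of the first step of sulfate assimilation, moved the other way. Its signals were 10.41 and 10.50 in slim1-1, 10.23 and 10.43 in slim1-2, and 9.31 and 9.20 in P. The mutants overlapped and both lay above P, by 1.2 ± 0.09 and 1.07 ± 0.09. The allele difference was 0.13 (95% interval -0.07 to 0.33, adjusted p = 0.99).

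BCAT4, a branched-chain aminotransferase that starts methionine chain elongation for aliphatic glucosinolates, read 7.36 and 7.31 in slim1-1, 6.97 and 7.01 in slim1-2, and 6.27 and 5.93 in P. The 3 lines did not overlap, and slim1-1 was the highest. The difference between the alleles, 0.35 with a 95% interval of 0.12 to 0.58, was not called (adjusted p = 0.41).

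AT1G75280, an isoflavone reductase-like protein, had the smallest allele difference of the genes named for their shift from P. It read 9.92 and 9.83 in slim1-1, 9.89 and 9.77 in slim1-2, and 12.08 and 12.05 in P. The mutants overlapped each other and were more than 2 units below P. The allele difference was 0.04 with a 95% interval of -0.13 to 0.21.

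AT4G31330 (-2.67 and -2.60 from P in slim1-1 and slim1-2), AT2G25510 (-2.02 and -1.87), AT5G40670 (-1.59 and -1.70) and AT3G27150 (-1.16 and -1.34) were lower than P by similar amounts in both mutants. The allele intervals of these 4 genes included 0 and stayed within 1 log2 unit. Among the genes above P, AT5G40630, nad4, AT1G64370, AT1G69526, AT1G65370 and AT3G50640 were higher in the mean of the mutants by 0.67 to 1.00. Their allele differences ran from -0.33 to 0.27 and none was called. The calls against P of nad4 and AT1G65370 (adjusted p = 0.0499 and 0.047 in limma) were lost in 12 and 11 of 21 alternatives. That of AT5G40630 was lost in 7 of 20. Those of AT1G64370, AT1G69526 and AT3G50640 were lost in 1, 2 and 1 of 21. The genes in these paragraphs are the 8 highest and the 8 lowest called for the mean of the mutants that have 1 gene in the annotation. The slim1-1 and slim1-2 differences from P share the P arrays, so they are set side by side and not correlated.

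AT2G30540 had the largest allele difference of these 16 genes. Its signals were 6.37 and 6.90 in slim1-1, 5.45 and 5.66 in slim1-2, and 7.71 and 8.01 in P, so that slim1-2 lay lowest without overlap. It was below P by 1.22 ± 0.40 in slim1-1, where it was not called (adjusted p = 0.21), and by 2.30 ± 0.40 in slim1-2 (adjusted p = 0.0094). The allele difference of 1.08 was not called (adjusted p = 0.63), and its 95% interval of 0.22 to 1.95 reached well past 1.

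**Figure D2:**
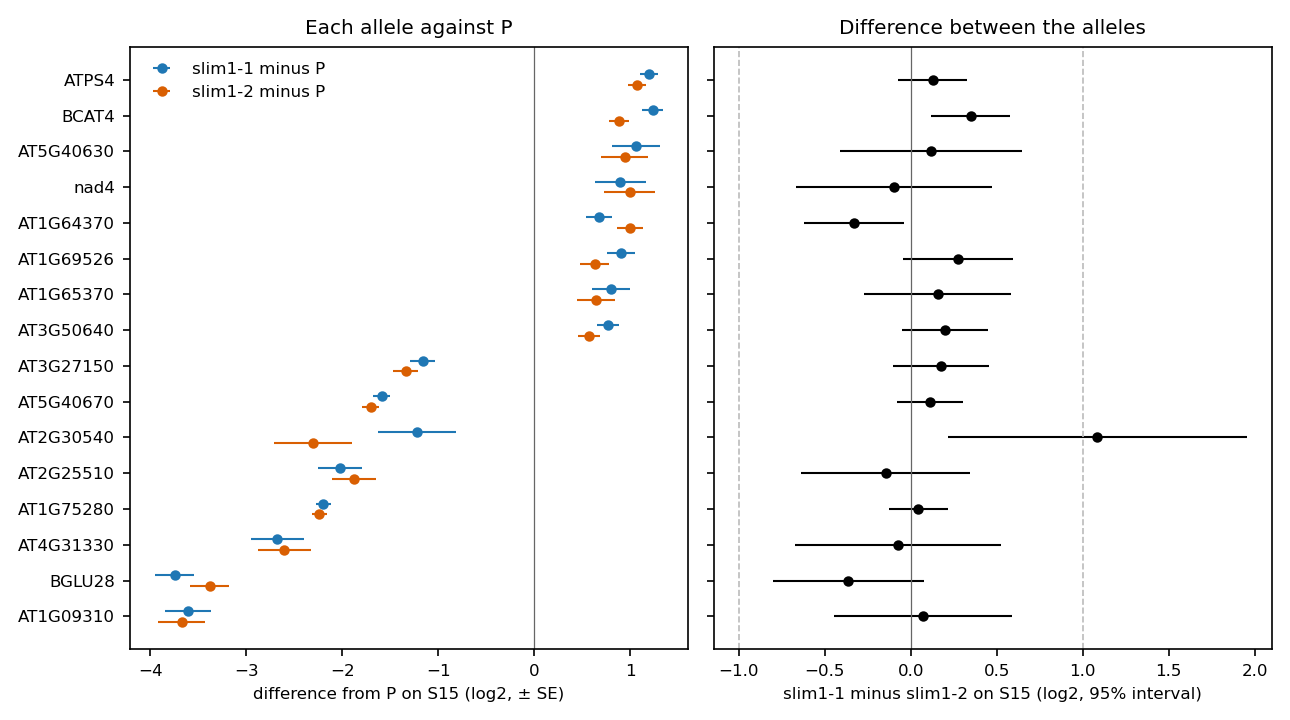
The 16 genes named by their shift from P on S15, with each allele's log2 difference from P and its SE (left, blue slim1-1, orange slim1-2) and the log2 difference between the alleles with its 95% interval (right; dashed lines at -1 and 1). Both alleles lie on the same side of P for every gene shown, which the choice by the size of the mean shift itself favours. Of the allele intervals, that of AT2G30540, centred on 1.08, is the one that reaches past 1.

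AT1G09310 was dim in both mutants on S15. It read 3.98 and 3.81 in slim1-1, 3.91 and 3.75 in slim1-2, and 7.64 and 7.36 in P. Both slim1-2 arrays and 1 of the 2 slim1-1 arrays lay below the highest Bacillus subtilis control probe set of their array, so these levels are bounds and their order cannot be read. With slim1-2 raised to the bound, the gene was at least 9.29-fold lower there than in P. The limma test of slim1-2 against P (adjusted p = 7.9e-07) used the values not raised to the bound, with a difference of -3.67.

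Of the 14 tested genes in the sulfur lists limma called 0 between the alleles on S15, against 0.183% of all tested, so a count of 0 in so few genes is near the background. 1 of them, BCAT4, had an unadjusted p under 0.05. The sulfate assimilation list had 3 of its 18 genes tested, ATPS3 (0.28), ATPS4 (0.13) and SIR (0.13, sulfite reductase), all slightly higher in slim1-1. The sulfur deficiency list had 3 of 8, of which SDI2, a repressor of glucosinolate synthesis, differed by 0.11 (95% interval -0.21 to 0.42) and the methionine gamma-lyase MGL by 0.29 (-0.01 to 0.58). Methionine metabolism had 4 of 13 tested, and MMT, CBL and HMT1 each differed by -0.04. Aliphatic glucosinolate synthesis had 4 of 21 tested, and apart from BCAT4 the differences were -0.15 for GSTU20, -0.14 for UGT74C1 and -0.07 for UGT74B1. Intervals within 1 log2 unit were found for every tested gene of these lists, which is near the 98.5% of all tested probe sets. EIN3, the founding member of the SLIM1 family, differed by -0.01. The 3 tested genes of the rapid stress list, AT5G65300, AT4G29780 and STZ, were each slightly higher in slim1-1 (0.04 to 0.45). Including these, 0 of the 13 tested genes in 7 further lists were called by limma, and 0 had an unadjusted p under 0.05. These lists cover beta-glucosidases, inner root tissues, iron, stress, auxin, flavonoids and glutathione transferases. BGLU28 and GSTU20 are in them and also among the 14 genes of the sulfur lists, so the counts overlap. No gene of the sulfate transport or indole glucosinolate lists was analysed here. The median over all tested probe sets was 0.001.

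The lines did differ at a small set of other genes, of which 9 have 1 gene in the annotation, 1 probe set is shared by AT5G33355 and AT3G59930, and 15 are unnamed here. AT4G12500, a lipid-transfer-like protein of the AZI1 family, showed the largest excess in slim1-1. It read 8.77 and 9.03 in slim1-1, 7.82 and 7.68 in slim1-2, and 8.30 and 8.37 in P. The alleles lay on opposite sides of P without overlap. slim1-1 exceeded slim1-2 by 1.15 ± 0.12 (2.22-fold, adjusted p = 0.0022), with 0.57 above P in slim1-1 (adjusted p = 0.031) and -0.58 in slim1-2 (adjusted p = 0.028).

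Its relative AT4G12490, separated from it by 1 annotated protein-coding gene, also had slim1-1 as the highest line. It read 6.45 and 6.87 in slim1-1, 5.61 and 5.57 in slim1-2, and 5.59 and 5.97 in P. The slim1-1 arrays were above all others on S15, and slim1-2 overlapped P. The difference of 1.07 ± 0.23 was not called (adjusted p = 0.11). Genes of this family are similar in sequence, and whether their probe sets read each other's transcripts was not tested.

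AT1G26250, a proline-rich extensin-like cell wall protein, and AT5G26270 were the other named genes higher in slim1-1. AT1G26250 read 9.23 and 9.16 in slim1-1, 8.49 and 8.22 in slim1-2, and 9.48 and 9.49 in P, a difference of 0.84 ± 0.11 (adjusted p = 0.0079). AT5G26270 read 8.17 and 8.39 in slim1-1, 7.39 and 7.40 in slim1-2, and 8.27 and 8.70 in P, a difference of 0.88 ± 0.14 (adjusted p = 0.016). In both genes slim1-2 was the line that stood apart from P, by -1.13 and -1.09, while slim1-1 was not called against P.

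Over the 8 probe sets higher in slim1-1, slim1-2 lay farther from P than slim1-1 in each, though in AT4G12500 by little, with 7 called against P in slim1-2 alone and 1 in both lines. Over all tested probe sets 1.6% were called against P in slim1-1 and 1.55% in slim1-2. The probe sets called between the alleles were chosen on the same mutant arrays, which by itself favours a call against P. Those shares are therefore not a like background for them. The 17 that were lower in slim1-1 were mixed: slim1-1 lay farther from P in 12 and slim1-2 in 5. Of the 17, 8 were called against P in slim1-1 alone, 3 in slim1-2 alone, 2 in both and 4 in neither.

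Among the named genes lower in slim1-1, AT4G25790, a CAP-domain protein related to PR-1, read 7.08 and 7.06 in slim1-1, 8.04 and 7.83 in slim1-2, and 8.38 and 8.57 in P. The lines formed 3 separate levels, with slim1-1 the lowest. The allele difference was -0.87 ± 0.12 (adjusted p = 0.011), made of -1.40 from P in slim1-1 and -0.54 in slim1-2. AT4G22640 read 6.73 and 6.46 in slim1-1, 7.55 and 7.42 in slim1-2, and 7.48 and 7.43 in P, so slim1-2 sat at the parental level. Its difference was -0.89 ± 0.14 (adjusted p = 0.016).

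AT5G07030, an aspartyl protease family protein, had the smallest called difference of the named genes. It read 10.38 and 10.53 in slim1-1, 10.88 and 11.03 in slim1-2, and 10.88 and 10.89 in P. Here too slim1-1 lay under both other lines, and the alleles differed by -0.50 ± 0.08 (adjusted p = 0.018).

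In AT2G16005, an ML-domain lipid recognition protein, the order was turned. It read 6.61 and 6.54 in slim1-1, 7.34 and 7.41 in slim1-2, and 6.63 and 6.55 in P, so slim1-1 overlapped P and slim1-2 was above both. The alleles differed by -0.79 ± 0.11 (adjusted p = 0.012). AT4G01390, a TRAF-like protein, had the largest called gap of all, with 5.12 and 4.46 in slim1-1, 6.21 and 6.74 in slim1-2, and 5.69 and 5.48 in P. P lay between the alleles, and the difference of -1.69 ± 0.28 (3.22-fold, adjusted p = 0.027) had the widest interval of the 9, -2.30 to -1.08. Neither allele was called against P for this gene (adjusted p = 0.26 and 0.16). On S15 only its slim1-2 arrays lay above the value of the filter on dim signals. The call between the alleles was lost in 7 of the 21 alternatives that kept the gene. Those 7 included no filter and the 4 slim1 arrays on S15 alone.

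**Figure D3:**
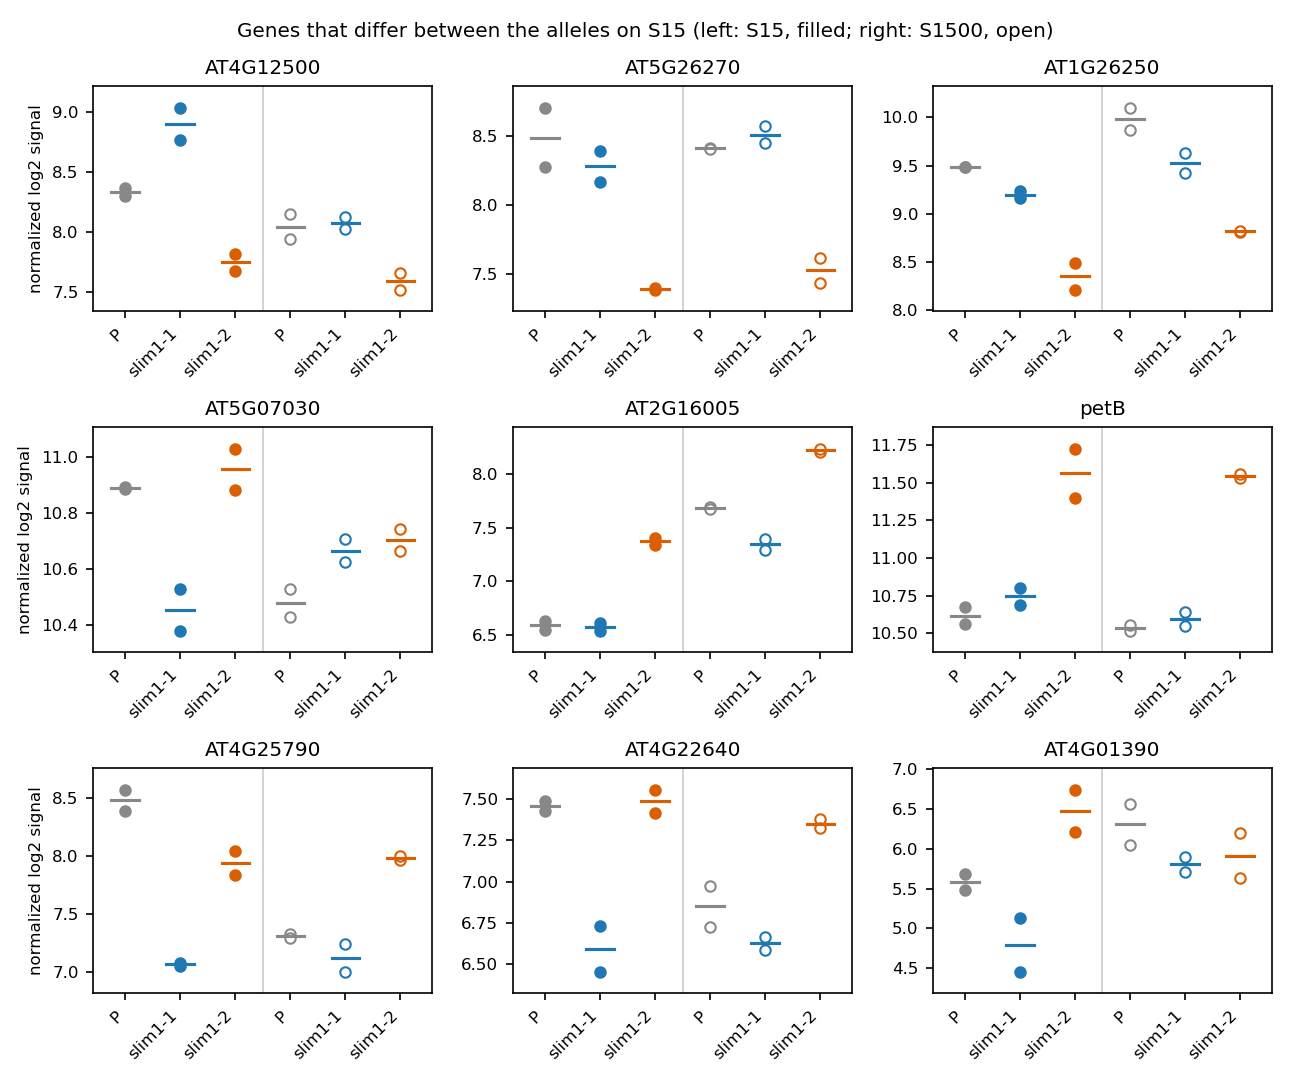
Normalized log2 signal (y axis, a separate range in each panel) of the 9 named genes called between the alleles on S15, for P, slim1-1 and slim1-2 on S15 (filled, left of the line) and S1500 (open, right); points are arrays and bars are means of 2. In every panel the filled slim1-1 and slim1-2 points do not overlap, and P lies with slim1-1 in some genes, such as AT2G16005, and with slim1-2 in others, such as AT4G22640.

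The 16 called probe sets without a single gene name, 5 higher and 11 lower, differed by -1.33 to 0.79. The highest unnamed here were 266712_at (0.79) and 252123_at (0.77), and the lowest were 254766_at (-1.33) and 247871_at (-1.12). In all 25 calls the arrays of the alleles did not overlap on S15, which was also true of 32.3% of all tested probe sets.

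Several further genes came close to the threshold without being called. Higher in slim1-1 were AT4G07820, another CAP-domain protein (0.76, adjusted p = 0.053), AT5G64120, the cell wall peroxidase PRX71 (0.76, 0.065), AT1G33590, a leucine-rich repeat protein (0.67, 0.067), AT1G17160 (0.78, 0.079) and AT2G40935 (0.57, 0.14). Lower were the root hair expansin EXPA18 (-0.62, 0.053), the protein kinase AT1G03740 (-0.96, 0.062), AT3G23300 (-0.45, 0.067), the peroxidase AT3G49960 (-0.87, 0.072), AT1G16080 (-1.33, 0.072) and AT5G01740 (-0.47, 0.075), where the second value is again the adjusted p.

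Plastid-encoded genes were the 1 list with a member called on S15. Of 85 listed genes, 69 had a probe set named here and 55 were tested, of which 1 was called lower in slim1-1 and 0 higher, beside 0.125% and 0.0586% of all tested probe sets. That gene was petB, cytochrome b6 of the plastid cytochrome b6f complex. It read 10.69 and 10.80 in slim1-1, 11.40 and 11.73 in slim1-2, and 10.56 and 10.68 in P. slim1-1 sat near P, and both slim1-2 arrays were above every other S15 array. The allele difference was -0.82 ± 0.09 (1.76-fold, adjusted p = 0.0022), and slim1-2 exceeded P by 0.95 ± 0.09 (adjusted p = 7.4e-05). On S1500, petB read 10.55 and 10.64 in slim1-1, 11.53 and 11.56 in slim1-2, and 10.52 and 10.55 in P, the same order.

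petB stands in a run of neighbouring plastid genes with psbB and psbT, subunits of photosystem II, and psbH, another such subunit, while psbN, which lies among them, was not tested. This group was picked out after its values were seen, so it is described without a test. On S15 the differences were -0.44 for psbB, -0.68 for psbT and -0.58 for psbH, none of them called (adjusted p = 0.87, 0.75 and 0.22). With petB they were the 4 lowest of the 55 tested plastid-encoded genes, and the other 51 ran from -0.40 to 0.33 with a median of -0.02. On S1500 all 4 were called lower in slim1-1, by -1.06, -1.22, -0.96 and -0.95 in the order psbB, psbT, psbH and petB. Of the 55, 6 were called lower on S1500 and 0 higher, beside 1.17% and 0.52% of all tested probe sets. The psbT call (adjusted p = 0.042) was lost in 10 of 20 alternatives, the replicate block among them. Of the other 51, rpoA (-1.42), a subunit of the plastid RNA polymerase, and ndhC (-0.91), a subunit of the plastid NDH complex, were called there, and both were not on S15 (-0.40 and -0.35). In the annotation order rpoA is the next tested gene after petB. It was the lowest of the 55 on S1500 and came next after the 4 on S15, so the group has no sharp edge on that side.

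psbH read 8.62 and 8.54 in slim1-1, 9.10 and 9.22 in slim1-2, and 8.19 and 8.74 in P on S15. As for petB, slim1-2 lay above both other lines, by 0.70 ± 0.15 over P (adjusted p = 0.031), and slim1-1 fell within the range of P. Whether these probe sets read separate transcripts or 1 joint transcript was not tested.

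**Figure D4:**
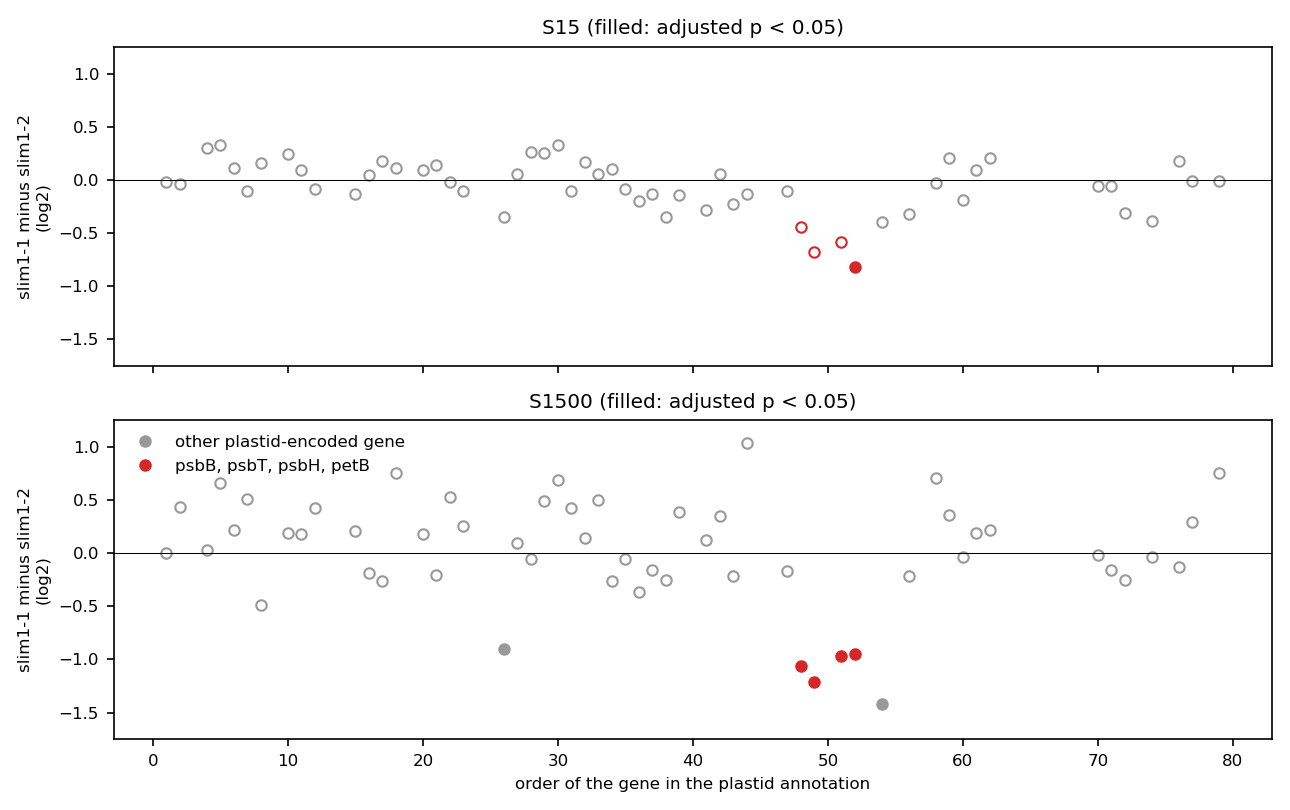
Log2 difference slim1-1 minus slim1-2 (y axis) of the 55 tested plastid-encoded genes in the order of the annotation (x axis), on S15 (top) and S1500 (bottom); filled points have an adjusted p under 0.05. The red run of psbB, psbT, psbH and petB lies between -0.44 and -0.82 on S15, below the other 51 genes, and between -0.95 and -1.22 on S1500. The next tested gene after petB, rpoA, lies at -0.40 on S15 and at -1.42 on S1500, below the run there.

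Tissue markers were also compared on S15. PYK10, a very abundant root beta-glucosidase, read 12.73 and 12.69 in slim1-1 and 12.75 and 12.75 in slim1-2, as fits the root label. The root hair genes EXPA7 (-0.33), EXPA18 (-0.62) and PER7 (-0.48), 3 tested of 10 listed, all had a negative difference and none was called. All 3 had an unadjusted p under 0.05 in limma, against 822 of all 13647 tested. In RNA of whole roots, fewer cells of a type and less RNA per cell cannot be told apart. On S1500 the same genes differed by -0.50, -0.71 and -0.58, and EXPA18 and PER7 were called, beside 1.17% of all tested called lower there. Of the 21 shoot and photosynthesis markers, 3 were tested and differed by -0.12 (RCA, Rubisco activase), -0.23 (LHCB4.1) and 0.13 (LHCB4.2) on S15, with 0 called by limma and 0 at an unadjusted p under 0.05. The defining root markers COBL9 and CASP1 were not analysed here.

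The same alleles on S1500 gave 231 calls (1.69%), 71 higher (0.52%) and 160 lower (1.17%) in slim1-1. The media share no array, though they share the normalization and the estimate of the spread. All 25 S15 calls had the same direction on S1500, against 55.9% of all tested probe sets, and 20 of the 25 were called there. Those 20 are 80.0% of the S15 calls and 8.66% of the S1500 calls. Across all tested probe sets the differences on the media correlated at r = 0.295, given as a description because genes are not independent.

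The S1500 calls were also read on S15, where values chosen for their size on S1500 tend to be smaller through that choice alone. The 71 probe sets higher in slim1-1 on S1500 had a median difference of 0.70 there and 0.23 on S15, with 53 in the same direction and 7 called. The 160 lower ones had medians of -0.83 and -0.32, with 140 in the same direction and 13 called. Whether the difference depends on the medium was tested directly.

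The allele difference depended on the medium at 15 probe sets (0.11%), 13 with a higher value on S15 (0.0953%) and 2 with a lower one (0.0147%). An unadjusted p under 0.05 was reached by 734. AT1G09310 read 4.51 and 4.34 in slim1-1 on S1500, 7.93 and 7.29 in slim1-2, and 7.87 and 7.41 in P. On that medium slim1-2 overlapped P and slim1-1 was low, while on S15 both mutants were low. The allele difference was -3.18 ± 0.24 on S1500 and 0.07 ± 0.24 on S15, and the change between media was 3.25 ± 0.34 (adjusted p = 0.00088). With every value raised to the control bound of its array this change was 2.95 (adjusted p = 0.014). AT1G09310 passed the filter at 5.77 only through P and slim1-2 on S1500, since its other arrays lay below that value. Its test therefore depends on the groups where it is high. In the 14 alternatives that kept the gene, the call was lost in 1, without normalization between arrays.

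ChiC, a class V chitinase, read 9.07 and 9.06 in slim1-1 and 8.65 and 9.002 in slim1-2 on S15, but 8.28 and 8.39 against 9.26 and 9.50 on S1500. slim1-2 was higher on S1500 and lower on S15, where the difference of 0.24 was not called. The change between media was 1.28 ± 0.19 (adjusted p = 0.019). This call was lost in 9 of 21 alternatives.

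Among the 9 named S15 calls none had a called change between media. AT5G26270 (0.88 on S15 and 0.98 on S1500), AT1G26250 (0.84 and 0.71), AT4G25790 (-0.87 and -0.85), AT2G16005 (-0.79 and -0.87), AT4G22640 (-0.89 and -0.72) and petB were called on both media. AT4G12500 (1.15 and 0.48), AT5G07030 (-0.50 and -0.04) and AT4G01390 (-1.69 and -0.11) were called on S15 alone. For these 3 genes the change between media was 0.67, -0.46 and -1.58 (adjusted p = 0.32, 0.27 and 0.31), so a difference between the media was not shown.

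The genes with the largest S1500 differences were chosen for that size, so their S15 values are set beside them as a description. AT2G30540 differed by 1.79 on S1500, where 1 of the 2 slim1-2 arrays was below the control bound, and by 1.37 with values raised to that bound, and its S15 difference was 1.08. Its S1500 call was lost in 11 of 20 alternatives. AT2G23910 differed by 1.64 on S1500 and 0.53 on S15, AT4G03100 by 1.42 and -0.05, and CHIL, a chalcone isomerase-like protein of flavonoid synthesis, by 1.24 and 0.65. PSAE-1, a photosystem I subunit, differed by -1.54 and -0.54, and PSBW, a photosystem II subunit, by -1.33 and -0.21. The shoot markers RCA, LHCB4.1 and LHCB4.2 were called lower in slim1-1 on S1500 (-0.71, -0.69 and -0.82), as were 1.17% of all tested probe sets. None of these genes had a called change between media (adjusted p from 0.19 to 0.97), so a dependence on the medium was not shown for them. The part of shoot or plastid RNA in the S1500 differences was not tested. BCAT4 was called on S1500 (0.91) with UGT74B1 (0.60), and on S15 their differences were 0.35 and -0.07. They are 2 of the 4 tested aliphatic glucosinolate genes, beside 0.52% of all tested called higher on S1500. Of these 4, 0 had a called change between media, so a dependence on the medium was not shown here either.

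**Figure D5:**
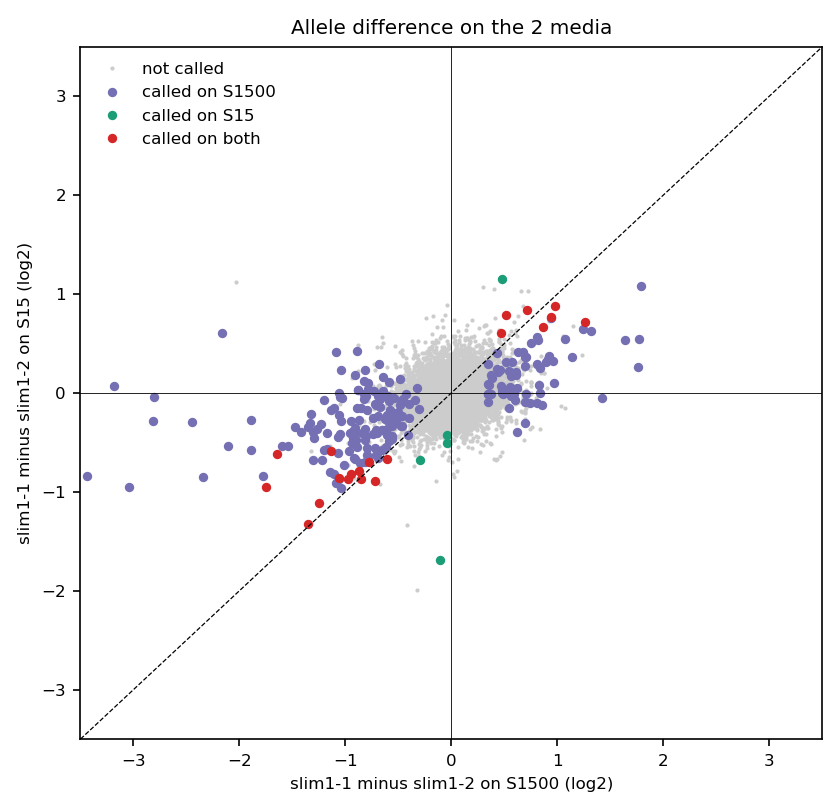
Log2 difference slim1-1 minus slim1-2 on S15 (y axis) against that on S1500 (x axis) for 13647 tested probe sets, coloured by where they were called; the dashed line marks equal differences. The 25 S15 calls lie in the lower left and upper right quadrants, and most of the 231 S1500 calls lie nearer to 0 on S15 than the dashed line.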

How the data were processed

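The deposited intensity values are linear signals that the authors made with MAS5, according to the submitters' processing notes, whose version and scaling target are not stated there. Signals under 1 were set to 1, log2-transformed and quantile-normalized over the 12 arrays. Non-control probe sets with a mean above the 40th percentile (5.77) were tested with limma 3.58.1 in R 4.3.3: 1 mean per group, eBayes with an intensity trend, with 7.76 prior and 6 residual degrees of freedom, two-sided tests, Benjamini-Hochberg adjustment over all 13647. The fit was first tested on simulated data. With 2 arrays a group an exact test over arrays alone could not go below p = 0.333. Precision is limited by the number of arrays.

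Of all probe sets, 13513 have 1 gene in the annotation, 503 several and 8794 are unnamed here. 13436 matched RefSeq of assembly TAIR10.1. Named genes are every called S15 gene, the 6 next by moderated t on each side, 5 per side for S1500 and for the change between media, 8 per side for the mean of the mutants against P, called list members and a fixed set of sulfur and marker genes. Members and lists were chosen with earlier results of these data known. Groups and replicate numbers came from sample titles. Alternatives were other normalizations, pseudocounts, filters, variance models, array sets, a replicate block and leaving out each array; values raised to the control bound were added after seeing the data.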

Additional observations from a re-analysis of the deposited data

Results flagged for a closer look

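The allele difference, slim1-1 minus slim1-2, differed between S15 and S1500 by a test of the interaction for 3 of the probe sets described. It changed by 3.25 for AT1G09310, and by 2.95 (adjusted p = 0.014) with values raised to the control bound. This gene passed the filter only through its high groups. On S15 both slim1-2 arrays and 1 slim1-1 array of this gene were below that bound. The allele difference changed by 1.28 for ChiC, a call lost in 9 of 21 alternatives, with slim1-2 higher on S1500 (-1.04) and no called difference on S15 (0.24). For the unnamed probe set 254818_at it changed by 1.02, from -1.64 on S1500 to -0.62 on S15 (adjusted p = 0.023), and this is 1 of the 25 S15 calls.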

How the results depend on the processing

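No alternative reversed a called direction among the 83 single-gene results. Of their 1853 recomputed values 1664 kept their side of the threshold, 160 lost a call and 29 gained 1. A difference that was not called could change sign and still count as kept. That of ATPS4 on S15, 0.13, ran from -0.23 to 0.23. The counts moved by more than 1.5 times as follows. Without normalization between arrays they were 1 between the alleles on S15, 12 on S1500, 0 in limma for the change between media (197 at an unadjusted p under 0.05), 25 for the mean of the mutants against P, 13 for slim1-1 and 13 for slim1-2 against P, and 2248 intervals within 1 log2 unit; the cause was not tested. With no filter the S15, change-between-media and slim1-2 counts were 9, 5 and 135, with no intensity trend 3, 4 and 130, and above the 60th percentile the change between media had 8. The 4 slim1 arrays on S15 alone gave 13.

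Leaving out each array in turn gave 6 to 35 calls on S15, 111 to 229 on S1500, 4 to 14 for the change between media, 128 to 307 for the mean against P, 122 to 225 for slim1-1, 90 to 230 for slim1-2 and 13052 to 13454 intervals within 1 log2 unit. On S15 the low counts came without slim1-1-S15 replicate 1 (6) or 2 (12) and without slim1-2-S15 replicate 1 (8) or 2 (8), each of which leaves a lone array assumed to vary like the other groups. AT4G12500 kept its call in 23 of 24 alternatives and petB in 22; the other 7 named calls lost it in 4 or more. With the replicate block 32 probe sets were called on S15; same-numbered arrays correlated at -0.12 to 0.23 in their deviations over the pairs of groups, with 0.23 for slim1-1-S15 with slim1-2-S15. On S15 the same-numbered arrays of the alleles differed by over 2-fold at 29 and 33 probe sets and the others at 39 and 52. The labels do not say what a number shares, and the pairing did not hold over all groups, so it was not used.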
